A study of Homo sapiens with 23 samples.

Results

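The 10 genes described here encode the ubiquitin ligases that the dTAG degraders recruit, together with the parent of the degron tag. They are CRBN and VHL, the shared and specific subunits of their ligase complexes (DDB1, CUL4A, CUL4B, CUL2, ELOB, ELOC and RBX1), and FKBP1A. They were chosen by name, through Ensembl identifiers matched to GENCODE v44 symbols, from a table of 60605 genes. No measured value entered the choice. Nascent transcription was measured by PRO-seq, a run-on assay in which engaged RNA polymerases add a labelled nucleotide and the tagged RNA is sequenced.

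The cells were T47D, a luminal breast cancer line, as a single dTAG-TRPS1 line called Clone 28, in which the native TRPS1 locus carries the degron tag. All groups therefore carried the tagged allele. The control group received 0.1% DMSO for 24 h (n = 4). The dTAG groups received dTAG-13 and dTAGV-1 together, at 50 nM each, for 0.5, 1, 2 or 4 h (n = 4 each) or 24 h (n = 3). Because the ligands were always given together, and TRPS1 loss went with them, the effects of dTAG-13, of dTAGV-1 and of TRPS1 loss cannot be told apart in these libraries.

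A dTAG ligand is a small molecule with a pair of ends, of which the first binds the FKBP12-derived tag and the other binds a substrate receptor. CRBN is the receptor bound by dTAG-13 and sits on the adaptor DDB1 in a ligase built on CUL4A or CUL4B. VHL is the receptor bound by dTAGV-1 and sits on the adaptor pair ELOB and ELOC in a ligase built on CUL2. RBX1 is the RING subunit that brings the ubiquitin-loaded E2 enzyme to both. FKBP1A encodes FKBP12, the prolyl isomerase from which the tag was made. VHL is known best as the receptor that marks hydroxylated hypoxia-inducible factors, and CRBN as the target of thalidomide and related imide drugs.

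Between 4408544 and 17571616 reads were counted in a library (median 9768427). Levels of single genes are given as CPM, counts scaled to the library total times its TMM factor (a correction for library composition). For the marker genes the total alone was the scale. In summed CPM, 9 luminal markers held 6015 to 7759 per library and 9 markers of other cell types held 24.7 to 34.4. The basal markers KRT5 and KRT14 had medians of 0.0756 and 0.12 CPM. COL1A1 and CD68, with medians of 12.5 and 11.4 CPM, made up most of the sum of the other cell types. These sums were not divided by gene length. The luminal sum was 7077 to 7759 in DMSO and 6302 to 7241 at 0.5 h. All libraries of 1 h (up to 6899), 2 h (7056), 4 h (6888) and 24 h (7069) lay below those of DMSO. ESR1 and PGR, with medians of 2459 and 2406 CPM, made up most of this sum. The luminal factors GATA3 and SPDEF fell at 0.5, 1, 2 and 4 h (edgeR, FDR under 0.1). The part of the luminal genes in the values below was not tested. TRPS1 itself, whose protein is the target, was transcribed in every library at 7997 to 11979 CPM. It was higher than DMSO in 19 of 19 same-numbered pairs, which for this and every gene below share the 4 DMSO libraries. Without a replicate term edgeR called it at no time point, with log2 fold changes of 0.13 at 0.5 h to 0.28 at 24 h (edgeR FDR = 0.822 and 0.288). With the replicate number as a block it was called at all 5, from 0.13 at 0.5 h (edgeR FDR = 0.0558) to 0.27 at 24 h (edgeR FDR = 0.000135), and DESeq2 called it at 24 h (FDR = 0.0866). A run-on count does not measure the protein, so it does not check the degradation.

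TRPS1 is a GATA-family protein, so the GATA words AGATAA and AGATAG, with TGATAA and TGATAG, were searched on both strands of the 250 bases before each RefSeq start (GRCh38.p14). Windows were held for 8 of the 10 members, and for VHL and ELOC there was no entry. The 8 have 17 windows, of which 2 held a word, 1 each of CUL4B and CUL2, beside 22.3% of all 35116 windows. Both windows belong to starts inside the annotated gene, and other windows of the same genes held no word. The 4 matches are printed with the word in capitals, at chrX:120575732-120575761, chrX:120575561-120575590, chr10:35074467-35074496 and chr10:35074419-35074448, all on the minus strand. They are letters in a window and no measure of binding.
CUL4B, first: aacaacctaggcTTATCTgtttaagtccca
CUL4B, second: cagccctgcagtCTATCAtcccggaaggtg
CUL2, first: accaaggttagaCTATCAgtgggagttagg
CUL2, second: cagctaaggaaaAGATAAgcactttaggta

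CRBN is the receptor that dTAG-13 needs, and the stretch before its annotated start is printed as an example without these words. Lacking a word is not particular to CRBN, as only 2 of the 17 windows of the members held one. The 240 bases lie just upstream of the annotated gene on the minus strand, chr3:3179728-3179967, and are 70.4% G or C. No base is in capitals.
CRBN: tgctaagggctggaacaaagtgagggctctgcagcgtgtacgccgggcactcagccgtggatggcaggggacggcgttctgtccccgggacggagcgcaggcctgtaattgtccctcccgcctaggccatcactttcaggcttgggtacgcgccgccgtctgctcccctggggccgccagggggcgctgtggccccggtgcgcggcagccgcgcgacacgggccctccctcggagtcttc

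In DMSO, all 10 genes were transcribed at levels that could be counted, from 120 counts for ELOB to 1398 for ELOC in a library. Over all 23 libraries the counts ran from 56 for ELOB to 1728 for DDB1. Levels are compared between genes per kb of gene span, as CPM on library sizes scaled by TMM factors, per kb. VHL was highest at 3.18 ± 0.162 (SD, n = 4), followed by ELOC at 2.94 ± 0.17 and ELOB at 2.70 ± 0.381. DDB1 stood at 2.26 ± 0.119, RBX1 at 2.19 ± 0.116 and CRBN at 2.15 ± 0.118. In this upper group of 6, each gene overlapped with the next in order. VHL and ELOC, with at least 3.05 and 2.69 in each DMSO library, nevertheless lay clear of DDB1, RBX1 and CRBN, which reached 2.37, 2.28 and 2.30.

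Below them, each step was larger than the spread. FKBP1A had 1.55 ± 0.0823 CPM per kb and CUL4A 1.14 ± 0.0658. CUL2, the scaffold of the VHL ligase, had 0.503 ± 0.0175, and CUL4B had the lowest level of the 10, 0.388 ± 0.0321. In DMSO the libraries of each of these did not overlap with those of the next. FKBP1A was above CUL4A, CUL4A above CUL2 and CUL2 above CUL4B in all 23 libraries.

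Per kb of span the receptors and adaptors were thus read more densely than the cullin scaffolds. Among 15720 protein-coding genes with a median of 0.867 CPM per kb, VHL lay at percentile 88.6 and CRBN at 79.7, against 35.9 for CUL2 and 31.0 for CUL4B. The paralogous scaffolds CUL4A and CUL4B, which can each carry DDB1 and CRBN, differed by a ratio of 2.96 ± 0.337 per kb in DMSO (n = 4). This ratio was between 2.60 and 3.89 in all 23 libraries. CRBN per kb was 0.678 ± 0.0641 times VHL in DMSO and below VHL in every library, with a highest ratio of 0.848. These are run-on densities over whole genes, paused polymerase near the start included, and not amounts of protein. The length that divides the counts matters: per kb of summed exons RBX1 was highest, at 15.5, and CUL4A (8.61) stood above VHL (7.57) and DDB1 (6.29). The adaptor ELOB, whose exons make up nearly all of its span, fell below the scaffolds CUL4A and CUL2 on that scale. CUL2 and CUL4B have the longest spans of the members, 118.5 and 98.2 kb, and both also have starts inside them. Which starts were in use was not tested, so their low density depends on the annotated span.

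**Figure D1:**
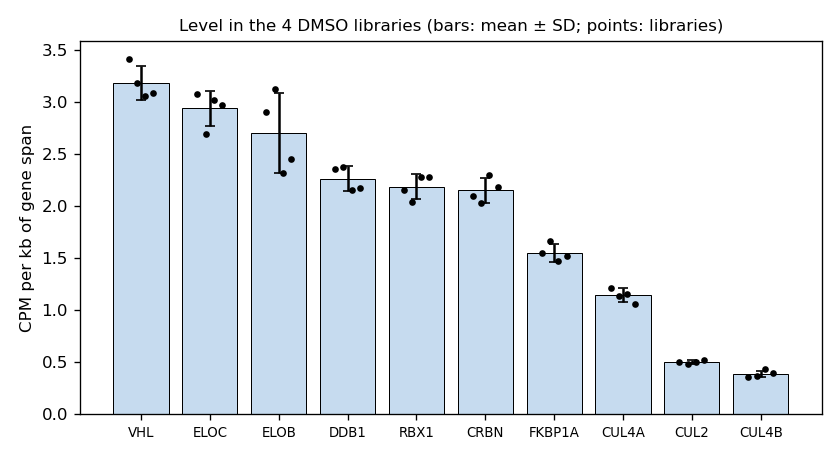
Mean level of each of the 10 genes in the 4 DMSO libraries, in TMM-scaled CPM per kb of gene span, with bars for mean ± SD and points for libraries. VHL, ELOC, ELOB, DDB1, RBX1 and CRBN lie between 2.15 and 3.18, and CUL2 and CUL4B lie at 0.503 and 0.388.

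The comparison of each dTAG time point with DMSO asks whether transcription of the machinery moved while it was in use. None of the 10 genes was called changed at any of the 5 time points (edgeR quasi-likelihood test, FDR under 0.1). Of all 26057 genes tested, 0.476% were called at 0.5 h and 1.25% at 1 h. The later shares were 0.733% (2 h), 0.833% (4 h) and 0.863% (24 h). With the replicate number as a block, none of the 10 was called either, beside 2.48%, 3.25%, 2.43%, 2.49% and 2.65% of all genes in the order of time. With so few genes called anywhere, 0 of 10 is near what the background gives and sets the members apart from nothing. The intervals say more: the 50 log2 fold changes lay between -0.10 and 0.13, and their 95% intervals between -0.29 and 0.33. In 45 of the 50, the interval lay within 0.25 of zero on the log2 scale. With the block the log2 fold changes lay between -0.11 and 0.12. Their intervals lay between -0.23 and 0.28, with 49 of the 50 within 0.25 of zero. At an unadjusted p under 0.05, edgeR gave 1 of the 50 without a block, beside 7.81% of all tests, and 3 with the replicate block, beside 11.7%. DESeq2 gave 1, beside 5.89%. No group of dTAG libraries was separated from the DMSO libraries for any member, where 4.97%, 5.37%, 4.85%, 4.43% and 9.49% of all genes were so separated in the order of time. A CPM is a share of a library, so fewer active cells and less RNA per cell cannot be told apart.

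**Figure D2:**
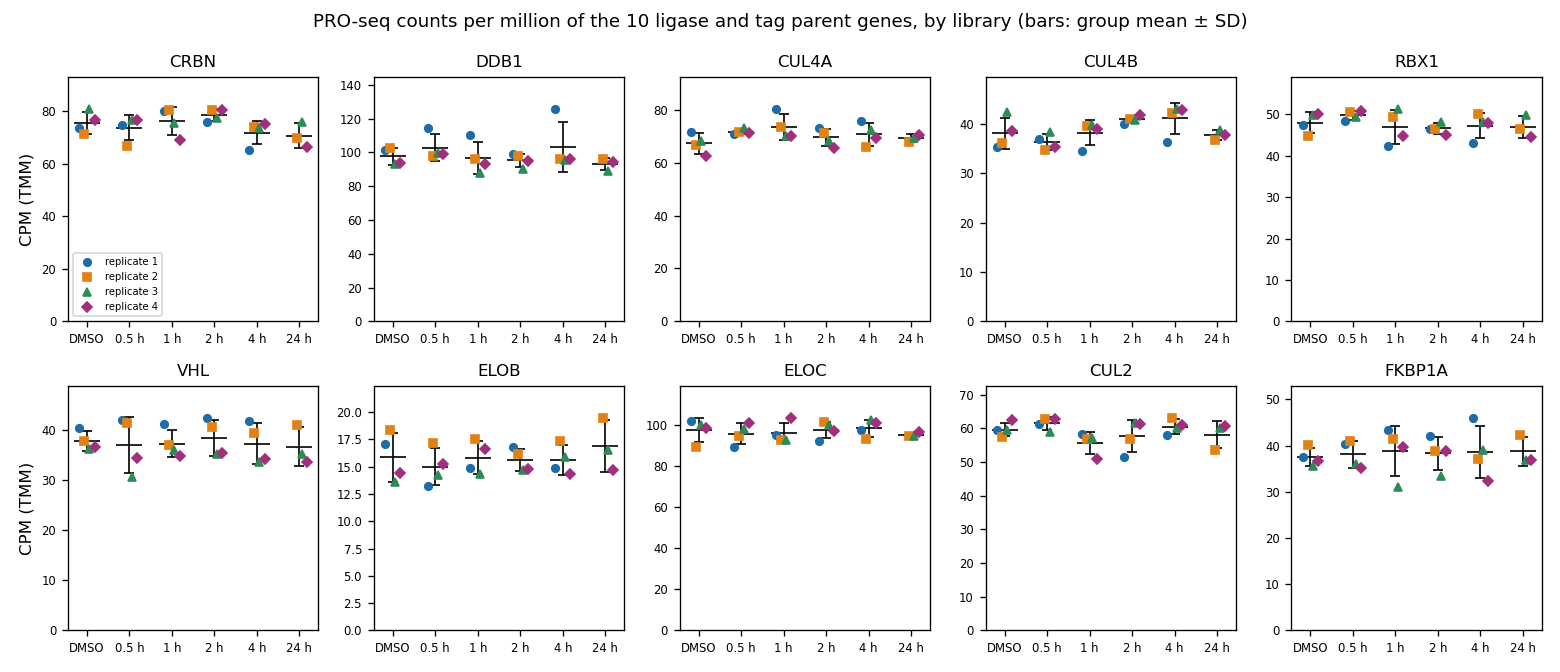
TMM-scaled CPM of each gene in each of the 23 libraries, by time of dTAG, with colour and shape for the replicate number and bars for the group mean ± SD; each vertical axis starts at 0. The dTAG points overlap the DMSO points in every panel.

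CRBN, the receptor for dTAG-13 (chromosome 3, 3144628 to 3179727, minus strand, hg38), had 73.6, 71.1, 80.7 and 76.5 CPM in DMSO replicates 1 to 4. It had 74.7, 66.8, 76.7 and 76.5 at 0.5 h, 80.1, 80.4, 75.3 and 69.1 at 1 h, and 75.8, 80.3, 77.3 and 80.3 at 2 h. It had 65.1, 73.8, 73.4 and 74.9 at 4 h and 69.6, 75.8 and 66.3 in replicates 2 to 4 at 24 h. The 24 h libraries reached below the DMSO range but overlapped with it. The log2 fold change at 24 h, the largest in size of the 5, was -0.10 ± 0.06 (SE; 95% interval -0.23 to 0.04; edgeR FDR = 0.854). CRBN was higher than DMSO in 7 of 19 same-numbered pairs.

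VHL, the receptor for dTAGV-1 (chromosome 3, 10141778 to 10153667, plus strand), had 40.6, 37.9, 36.3 and 36.7 CPM in DMSO. It had 42.1, 41.4, 30.6 and 34.4 at 0.5 h, 41.2, 37.1, 36.1 and 34.9 at 1 h, and 42.5, 40.7, 35.3 and 35.6 at 2 h. It had 42.0, 39.5, 33.7 and 34.3 at 4 h and 41.1, 35.3 and 33.7 at 24 h. In every group the libraries of replicates 1 and 2 stood above those of 3 and 4, while the groups overlapped throughout. The log2 fold change largest in size was -0.05 ± 0.10 at 24 h (95% interval -0.26 to 0.17; edgeR FDR = 0.991).

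The scaffolds of the CRBN ligase had the lowest p-values of the members. CUL4A (chromosome 13, 113208193 to 113267108, plus strand) had 71.7, 66.8, 68.3 and 62.4 CPM in DMSO and 80.3, 73.4, 70.1 and 70.2 at 1 h. It was higher than DMSO in 17 of 19 same-numbered pairs over the time points, which share the 4 DMSO libraries. At 1 h the log2 fold change was 0.13 ± 0.05 (95% interval 0.02 to 0.23; edgeR FDR = 0.416), and with the replicate block the FDR was 0.161. The DMSO and 1 h libraries overlapped.

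CUL4B (chromosome X, 120505920 to 120604074, minus strand) had 35.3, 36.1, 42.3 and 38.6 CPM in DMSO. It had 37.0, 34.6, 38.3 and 35.3 at 0.5 h, 40.0, 41.1, 40.7 and 41.8 at 2 h, and 36.4, 42.2, 43.0 and 42.7 at 4 h. At 24 h it had 36.8, 38.7 and 37.8. The values at 2 and 4 h were mostly near the top of the DMSO range, those at 24 h were inside it and those at 0.5 h were near its lower end. The log2 fold change at 4 h was 0.11 ± 0.06 (95% interval -0.01 to 0.24; edgeR FDR = 0.749). With the replicate block it was 0.11 ± 0.05 (95% interval 0.01 to 0.21; edgeR FDR = 0.409), and CUL4B was higher in 4 of 4 same-numbered pairs. Between 24 h and 4 h it was -0.13 ± 0.06 (95% interval -0.26 to 0.01; edgeR FDR = 0.695, and 0.173 with the block). None of the members was called in that comparison, in which 0.453% of all genes were called, or with the block, which called 1.77%.

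The time course from DMSO to 4 h, tested over its 4 dTAG time points in 20 libraries, called 1.33% of 25255 genes, or 4.6% with the block, and none of the 10 in either fit. CUL4B had the lowest p-value of the members there (edgeR FDR = 0.575 without the block and 0.124 with it). A p-value that misses the threshold does not show that a gene did not change.

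DDB1, the adaptor of the CUL4 ligases (chromosome 11, 61299451 to 61342596, minus strand), had 102, 102, 92.8 and 93.6 CPM in DMSO. At 4 h it had 126, 96.0, 95.2 and 96.2, with replicate 1 far above the other libraries. The log2 fold change at 4 h was 0.07 ± 0.08 (95% interval -0.09 to 0.24; edgeR FDR = 1.00), and it was -0.01 without replicate 1. That 4 h library of replicate 1 had the lowest total count, 4408544, and the highest mitochondrial share, 6.50% against 1.73% to 4.24% in the others. It also held the value standing apart in its group for 9.67% of all genes, against 0.518% to 6.82% in the other libraries of groups of 4. What part this had in the DDB1 value was not tested.

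Of the elongins, ELOC varied little and ELOB more. ELOC (chromosome 8, 73939169 to 73972307, minus strand), the elongin that joins VHL to CUL2, had 89.2 to 103 CPM over the 23 libraries. Its log2 fold changes ran from -0.04 to 0.01, and it had the tightest intervals, -0.15 to 0.12 over the 5 time points. Its partner ELOB (chromosome 16, 2771414 to 2777289, minus strand) had 13.3 to 19.5 CPM on the fewest counts and the widest intervals, -0.29 to 0.33. ELOB had 17.1, 18.4, 13.6 and 14.4 CPM in DMSO and 19.5, 16.5 and 14.7 at 24 h, so the groups overlapped at a log2 fold change of 0.10 ± 0.11 (edgeR FDR = 0.936).

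RBX1, the RING subunit (chromosome 22, 40951347 to 40973309, plus strand), had 42.3 to 51.3 CPM. Its log2 fold changes ran from -0.04 to 0.05, the latter at 0.5 h (SE 0.06; edgeR FDR = 0.982). CUL2 (chromosome 10, 35008504 to 35127006, minus strand) had 51.0 to 63.1 CPM. At 1 h CUL2 had 58.2, 56.8, 57.1 and 51.0 CPM against 59.5, 57.3, 59.4 and 62.4 in DMSO, which overlapped. The log2 fold change was -0.10 ± 0.06 (95% interval -0.22 to 0.02; edgeR FDR = 0.678).

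FKBP1A, the parent of the tag (chromosome 20, 1368977 to 1393164, minus strand), had 37.4, 40.2, 35.5 and 36.7 CPM in DMSO and 31.0 to 45.9 over all libraries. Its log2 fold changes were all between 0.02 and 0.05 (95% intervals within -0.19 to 0.27; lowest edgeR FDR = 0.978). It was higher than DMSO in 13 of 19 same-numbered pairs. Almost all of its span, 99.7%, is also covered on the same strand by an annotated readthrough gene with a mean of 738 counts per library, against 391 for FKBP1A. Whether reads from the tag copy in TRPS1 were counted as FKBP1A was not tested. The near-identical FKBP1C had a mean of 52.2 counts.

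**Figure D3:**
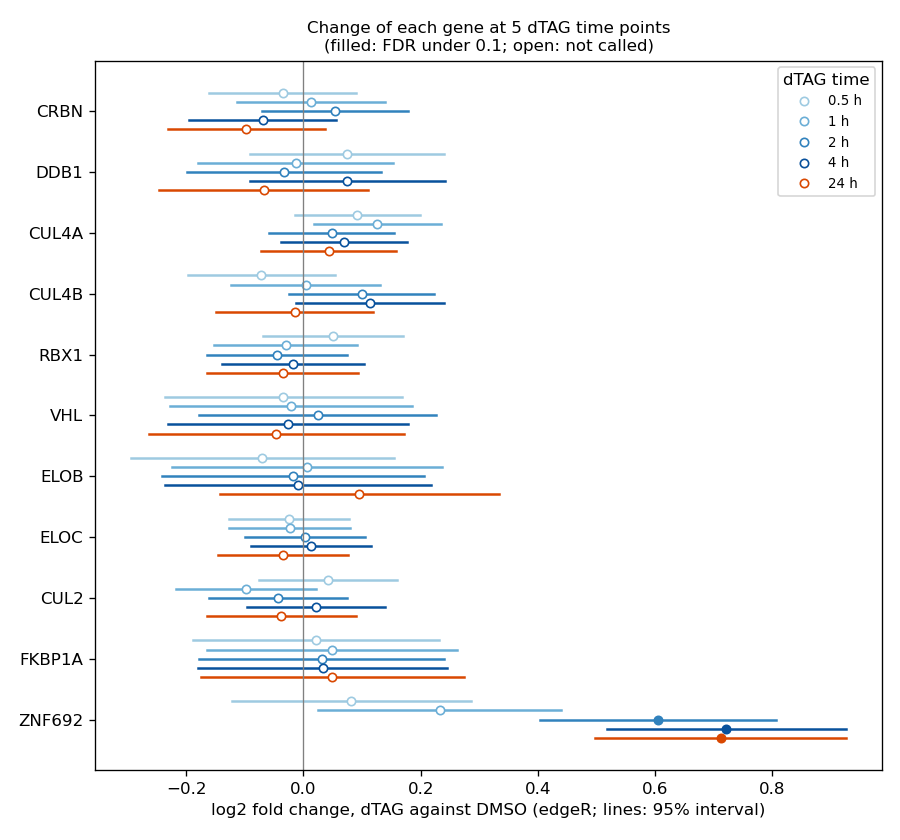
Log2 fold change against DMSO (points) with its 95% interval (lines) for the 10 genes and ZNF692 at each dTAG time, from the edgeR fit; filled points passed FDR under 0.1. All points of the 10 genes are open and lie between -0.10 and 0.13, and ZNF692 is filled at 2, 4 and 24 h.

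Other same-strand overlaps covered smaller shares of a member, and the part of any overlap in these values was not tested. CUL2 shares 24.5% of its span with a same-strand lncRNA that had a mean of 264 counts, against 618 for CUL2. On the opposite strand CRBN overlaps TRNT1, DDB1 overlaps TKFC, CUL4A overlaps PCID2, CUL4B overlaps MCTS1, CUL2 overlaps CREM and ELOB overlaps SRRM2. FKBP1A overlaps SDCBP2-AS1 there over 40.3% of its span, and SDCBP2-AS1 had a mean of 1258 counts. Most nested pairs of genes had the counts of a strand-aware table. In 30 of 39 pairs in which a gene lies inside a highly read gene of the other strand, the inner gene had less than 10% of the counts that its length would give if strand were ignored. A lncRNA inside VHL on the other strand had a mean of 0.609 counts, where 107 would follow from its length if strand were ignored. TRPS1-AS1 inside TRPS1 had 0.174 where 465 would follow.

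Some of the members differed by replicate number. Libraries with the same number were taken to have been harvested together, after treatments of different lengths. In a test of the replicate term, chosen after the values had been seen, 6 of the 10 members passed (edgeR quasi-likelihood F-test, FDR under 0.1), where 34.7% of all genes passed. These were VHL (FDR = 8.11e-05), DDB1 (0.000804), FKBP1A (0.0135), ELOB (0.0150), CUL4A (0.0806) and CUL4B (0.0889). CRBN, CUL2, ELOC and RBX1 did not pass, with FDR from 0.192 to 0.660.

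VHL was the clearest case. The 11 libraries of replicates 1 and 2 had 37.1 to 42.5 CPM and the 12 of replicates 3 and 4 had 30.6 to 36.7, with no overlap and DMSO libraries on both sides. This split was drawn after the VHL values had been seen and is a description. Of all genes, 0.944% were separated by it. The fitted replicate terms spanned 0.27 on the log2 scale for VHL, larger in size than any of its dTAG effects. For CRBN they spanned 0.07, less than its change of -0.10 at 24 h, and it had replicate medians of 74.7, 72.4, 76.2 and 75.7 CPM. Depth moved with the replicate number too, with median totals of 7001408, 9173671, 13718241 and 12112166 for replicates 1 to 4, and its part in the difference was not tested.

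**Figure D4:**
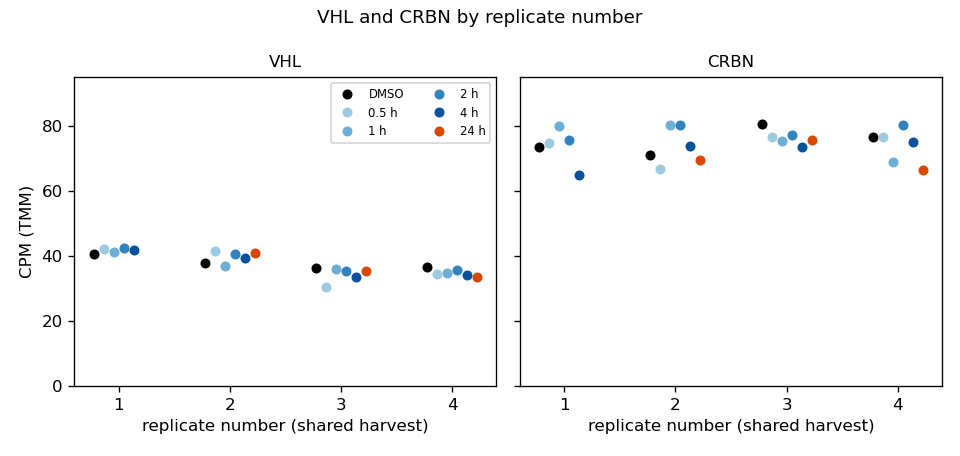
TMM-scaled CPM of VHL and CRBN in all 23 libraries, arranged by replicate number and coloured by treatment, on a vertical axis from 0. VHL libraries of replicates 1 and 2 lie at 37.1 and above and those of 3 and 4 at 36.7 and below, and CRBN shows no such step.

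Correlations of log2 CPM between members over the 23 libraries are given as a description. Libraries of the same number were taken to share a harvest, and depth moved with the number. The highest was 0.65 between DDB1 and FKBP1A, followed by 0.62 between VHL and FKBP1A and 0.53 between VHL and DDB1. After the replicate means had been taken out they were 0.34, -0.07 and -0.33. Others moved little, such as RBX1 with FKBP1A, from -0.60 to -0.53, and CUL2 with ELOB, from -0.41 to -0.47.

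Among genes with a mean of at least 100 counts, the patterns most like that of VHL were those of FKBP4, an Hsp90 co-chaperone of the FKBP family (r = 0.88), the histone gene H2AC13 (0.87) and SNHG9 (0.87). Histone genes have near-identical copies, so the H2AC13 value is uncertain. Without the replicate means these fell to 0.50, 0.40 and 0.45. Among the 3 closest to FKBP1A were the readthrough gene NME1-NME2 (0.82) and JUP (0.81), and 0.66 and 0.56 remained. For CRBN they were a lncRNA (ENSG00000273784, 0.75), AGGF1 (0.72) and EIF3M (0.69), at 0.77, 0.84 and 0.67 without the replicate means. The values for VHL fell furthest when the replicate means were removed, and those for CRBN changed least.

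The wider machinery was read from 7 lists with 123 genes, of which 120 passed the low-count filter. At 0.5 and 1 h none was called. A single gene rose at 2 and at 4 h. At 24 h there was 1 that rose and 1 that fell. The medians of the 120 log2 fold changes ran from -0.02 to 0.02 over the time points, beside 0.00 to 0.01 for all genes. With the replicate block 3 fell at 0.5 h, while 2 rose and 1 fell at 1 h. The block gave 1 that rose at 2 h and 2 at 4 h. For 24 h it gave 1 in each direction. Of the 120 genes these are shares near the 2.48% of all genes called with the block at 0.5 h and below those at the other time points. No other CUL4 receptor (25 tested), elongin B/C receptor (19), cullin or core subunit (13), NEDD8 or COP9 signalosome gene (24) or ubiquitin, E1 or E2 gene (15) was called at any time point without the block. With 0.476% to 1.25% of all genes called, a list of 25 would hold fewer than 1 by that share alone.

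For each of those 5 lists the gene with the smallest p is given, which in each case was a value at 0.5 h. They were chosen by p, none was called without the block, and the medians of the lists at 0.5 h were between -0.04 and 0.05. SPOP, the BTB receptor of CUL3 ligases, had 93.2, 94.2, 92.5 and 93.3 CPM at 0.5 h against 103, 105, 104 and 103 in DMSO. The groups did not overlap, as was so for 4.97% of all genes at 0.5 h. The log2 fold change of SPOP was -0.15 ± 0.04 (edgeR FDR = 0.122, and 0.0177 with the block). UBE2G1, an E2 enzyme that works with the CRBN ligase, had -0.15 ± 0.04 (edgeR FDR = 0.208, and 0.0363 with the block). By DESeq2 the FDR of SPOP was 0.0301 and that of UBE2G1 0.0583. WDTC1, a DDB1-binding receptor, had -0.25 ± 0.08 (edgeR FDR = 0.282). CISH, a cytokine-induced SOCS protein, had -0.31 ± 0.11 (edgeR FDR = 0.373). DCUN1D4, which helps to attach NEDD8 to cullins, had -0.11 ± 0.04 (edgeR FDR = 0.525).

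In the FKBP family, 1 of 14 tested genes was called, at 24 h, when 0.863% of all genes were. FKBP5, a co-chaperone of steroid receptors, had 316, 290, 316 and 303 CPM in DMSO and 259, 264 and 278 at 24 h. The 24 h values lay below all DMSO values, where 9.49% of all genes were separated from DMSO in either direction. The log2 fold change of FKBP5 was -0.20 ± 0.05 (edgeR FDR = 0.0493). Without each replicate in turn the FDR lay between 0.115 and 0.836, at log2 fold changes of -0.24 to -0.17. It was 0.461 with totals alone as the scale (-0.16), 0.00149 with the block (-0.19) and 0.000668 by DESeq2 (-0.20). FKBP4 fell at 0.5 and 1 h only in the fit with the block, by 0.19 and 0.17 on the log2 scale (edgeR FDR = 0.0248 and 0.0444).

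Among 10 tested genes whose proteins are known substrates of VHL or, with or without imide drugs, of CRBN, 1 was called. It was called at 2, 4 and 24 h, when 0.733%, 0.833% and 0.863% of all genes were. ZNF692, a zinc finger protein reported to be degraded through CRBN in the presence of imide drugs (chromosome 1, 248850006 to 248859144, minus strand), rose. It had 26.6, 32.8, 28.6 and 27.4 CPM in DMSO, 31.3, 33.3, 30.4 and 27.2 at 0.5 h, and 32.1, 37.1, 34.3 and 31.6 at 1 h. It then had 46.8, 49.9, 39.2 and 39.6 at 2 h, 50.2, 51.1, 43.0 and 46.4 at 4 h, and 55.4, 42.7 and 43.99 at 24 h. The 2, 4 and 24 h libraries all lay above every DMSO library. Of all genes, 4.85%, 4.43% and 9.49% were separated from DMSO at these times, in either direction.

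The log2 fold change of ZNF692 was 0.08 ± 0.10 at 0.5 h (edgeR FDR = 0.992) and 0.23 ± 0.10 at 1 h (0.446, and 0.0610 with the block). It was 0.60 ± 0.10 at 2 h (edgeR FDR = 0.00222). The later values were 0.72 ± 0.10 (4 h, edgeR FDR = 0.000339) and 0.71 ± 0.10 (24 h, edgeR FDR = 0.000988). Between 24 h and 4 h it differed by -0.01 ± 0.10 (edgeR FDR = 1.00). By p-value it ranked 41 of 26057 genes at 2 h, and 23 and 19 at the later times. Its rise was called at 2, 4 and 24 h under every alternative tried. It was higher than DMSO in 18 of 19 same-numbered pairs, which share the 4 DMSO libraries.

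**Figure D5:**
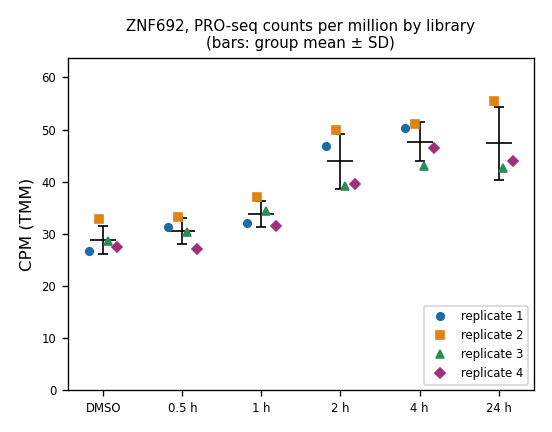
TMM-scaled CPM of ZNF692 in each library by dTAG time, with colour and shape for the replicate number and bars for the group mean ± SD, on a vertical axis from 0. DMSO libraries lie at 26.6 to 32.8 and those of 2, 4 and 24 h at 39.2 to 55.4.

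None of the genes around ZNF692 was called higher. The divergent lncRNA ZNF692-DT, which starts close by on the other strand (chromosome 1, 248859164 to 248864796), fell at 4 h by 0.39 on the log2 scale (SE 0.10; edgeR FDR = 0.0981, and 0.0148 with the block). Its other log2 fold changes, 0.04 (0.5 h), -0.10 (1 h), -0.22 (2 h) and -0.25 (24 h), were not called. ZNF672, SH3BP5L and PGBD2, the other genes within 60 kb with at least 100 counts, were not called at any time point. PGBD2 had 0.13 ± 0.08 at 2 h and 0.13 ± 0.09 at 24 h. The neighbours were looked at after the ZNF692 values had been seen.

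The other substrate genes were not called. HIF1A and EPAS1, the hypoxia-inducible factors marked by VHL, had log2 fold changes of -0.05 ± 0.10 and 0.03 ± 0.09 at 24 h (edgeR FDR = 0.981 and 1.00). GSPT1 had -0.07 ± 0.05, CSNK1A1 -0.04 ± 0.05, ZFP91 0.07 ± 0.07 and GLUL 0.07 ± 0.06 at 24 h. IKZF1 and IKZF3, lymphoid zinc finger genes and the best known imide drug substrates, had means of 15.2 and 21.5 counts per library. Their standard errors of 0.58 and 0.38 at 24 h leave changes of that size undetectable, and SALL4, at a mean of 5.65 counts, did not pass the filter.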

How the data were processed

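Sample titles put the 23 PRO-seq libraries into DMSO and 5 dTAG time points. The values that the authors deposited are raw counts of reads per gene, whole numbers without normalization. Per the submitters' processing notes and the study's methods, adapters were removed with cutadapt 1.8.1, reads were aligned to hg38 with Bowtie2 2.4.4 and handled with SAMtools 1.9, and reads in genes were counted with bedtools. Which annotation and strand setting the counting used is not given in the sources used here. Symbols and spans were taken from GENCODE v44, which matched 60463 of the identifiers.

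Counts were fitted with edgeR 4.0.16 (R 4.3.3; glmQLFit and glmQLFTest, two-sided) after filterByExpr (minimum count 10, minimum total 15) and TMM scaling. Kept genes, 26057 over 23 libraries and 25255 over 20, held 99.53% to 99.64% of the counts. Benjamini-Hochberg adjustment ran over every kept gene, and FDR under 0.1 was called. DESeq2 1.42.0, other scalings, no filter, the replicate number as block, each pair of groups alone and each replicate left out were alternatives. Log2 CPM for correlations used a prior count of 2. The edgeR step without a block was also run on simulated counts with known changes at 4 h. Those counts held no replicate effect and no outlying library, so they do not test the fit under shared harvests.

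The study's methods place the replicates at separate times of a single day, with the time points of each collected together. Equal replicate numbers in the sample titles were taken to mark a shared harvest. Deviations from group means correlated at a mean of 0.287 over 55 same-number pairs (-0.0596 to 0.728) and -0.0825 over 165 others (-0.623 to 0.481). Deviations within a group cancel, so the second mean partly follows from the first. Separate cultures per library are not stated beyond separate dishes, so p-values measure the spread between these samples. For 24 h, replicate 1 was not analysed here. The members and gene lists were chosen with earlier results of these data known. Genes outside the members were named by rule: those called in each of 7 lists, or the gene with the smallest p where none was called, and the 3 genes most correlated with CRBN, VHL and FKBP1A, of which 1 is not reported here.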

Additional observations from a re-analysis of the deposited data

Results flagged for a closer look

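Within groups of 4, 5 values of the members stood apart from the other libraries of their group by Dixon's criterion at 95%, out of 55 groups of 4 examined over 11 genes, where chance alone gives about 1 in 20. All 5 were in replicate 1, the replicate with the lowest median depth. Over all genes, too, replicate 1 held the most values standing apart at 0.5, 1, 2 and 4 h, though not in DMSO. At 0.5 and 4 h its library alone exceeded 1 in 20 of all genes. The excess in replicate 1 was thus not particular to the members, and 1 in 20 is too low a background for these groups. CRBN was lowest at 4 h in replicate 1, with 65.1 CPM against 73.4 to 74.9 in the others. DDB1 was highest in replicate 1 at 4 h, with 126 CPM against 95.2 to 96.2. It was also highest in replicate 1 at 0.5 h, with 115 CPM against 98.1 to 99.6. CUL4B was lowest in replicate 1 at 1 h, with 34.4 CPM against 39.0 to 39.8, and at 4 h, with 36.4 CPM against 42.2 to 43.0. The part of depth and of the mitochondrial share in these values was not tested.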

How the results depend on the processing

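No member was called at any time point, in the time course or between 24 h and 4 h under any alternative. Over 590 log2 fold changes of the members under the alternatives, 63 had the other sign, none was called, and the largest in size was 0.19. Leaving out each replicate in turn, FKBP1A at 1 h ran from -0.0101 to 0.124 and DDB1 at 4 h from -0.0105 to 0.131, both below zero without replicate 1. Counts over all genes at 0.5, 1, 2, 4 and 24 h, between 24 h and 4 h and over the time course were 124, 325, 191, 217, 225, 118 and 335. With the replicate block, whose pairing takes equal numbers to mark a shared harvest, they were 645, 846, 634, 650, 691, 460 and 1162. With total counts only they were 30, 142, 81, 87, 110, 18 and 93, and without a low-count filter 47, 163, 114, 127, 126, 50 and 178. DESeq2 gave 261 at 0.5 h, 344 at 24 h, 206 between 24 h and 4 h and 557 over the time course. With DMSO and the 1 time point only there were 2, 69, 79, 38 and 106. The time course over all 23 libraries gave 706. Leaving out each replicate in turn gave 14 to 88, 75 to 196, 43 to 155, 64 to 182, 38 to 233, 2 to 129 and 38 to 266. Most fits with fewer samples gave fewer calls. Leaving out a replicate nevertheless gave up to 233 at 24 h and 129 between 24 h and 4 h, beside 225 and 118. The causes of these differences were not tested.

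Called genes of the 7 lists with the replicate block numbered 3 at 0.5 h, 3 at 1 h, 2 at 4 h, 1 between 24 h and 4 h (LRR1) and 6 over the time course, and with DESeq2 2 at 0.5 h and 2 over the time course. At 24 h there was 1 in place of 2, as FKBP5 was lost, with total counts only, without a filter, with DMSO and 24 h only and without each replicate (1 to 1), at log2 fold changes of -0.165, -0.184, -0.204 and -0.239 to -0.174 against -0.197. The block changed no call of a member. Per kb of exons, DMSO levels were 9.37 for CRBN, 7.57 for VHL, 6.29 for DDB1, 8.61 for CUL4A, 1.13 for CUL4B, 4.12 for CUL2, 10.5 for ELOC, 15.5 for RBX1 and 6.27 for FKBP1A. ELOB, with 5714 bases of exons in a span of 5876, stayed near its 2.70 per kb of span, below CUL4A and CUL2.

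ELOB, with the fewest counts, had the widest intervals. Among called genes with a mean of 150 to 1100 counts, a range set around the members' means, the smallest log2 fold change in size was 0.16 to 0.20 by time point without the block and 0.11 to 0.13 with it. The largest of the members in size, CUL4A at 1 h, was 0.13 and 0.12.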

Other observations

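Transcription of the genes for 2 further proteins reported to be degraded through CRBN with imide drugs was read after their values had been seen, outside the naming rule. Picked in that way, they say nothing of such genes as a set. Of the 10 listed substrate genes tested, 1 was called, at 2, 4 and 24 h, when 0.733%, 0.833% and 0.863% of all genes were. TP63, the p63 transcription factor, was higher than DMSO in 19 of 19 same-numbered pairs, which share the 4 DMSO libraries. Its log2 fold changes were 0.49 ± 0.09 at 1 h (edgeR FDR = 0.00504) and 0.49 ± 0.09 at 24 h (0.00722). Of all genes, 1.25% and 0.863% were called at these times. TP63 had 18.3 to 20.8 CPM in DMSO, 22.6 to 26.1 at 0.5 h, 22.1 to 27.6 at 2 h and 25.5 to 28.4 at 4 h. Its density in DMSO was low, 0.0744 CPM per kb of span beside a protein-coding median of 0.867. ZBTB16, the zinc finger protein PLZF, had 0.32 ± 0.11 at 0.5 h (edgeR FDR = 0.362, and 0.00185 with the block) and 0.25 ± 0.11 at 1 h (0.472, and 0.0159), higher in 4 of 4 pairs at both times. It fell by 0.89 on the log2 scale at 24 h (SE 0.12; edgeR FDR = 0.000613), and had -0.09 ± 0.11 at 4 h (edgeR FDR = 1.00). At 2 h ZBTB16 had 78.5 to 99.5 CPM against 70.9 to 92.8 in DMSO, higher in 3 of 4 pairs.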
